A study of Bos taurus with 2 samples.

Results

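The mir-30 family is a group of microRNAs (miRNAs) that share the bases with which they pair to their targets, and it is described here in the bovine mammary gland (MG). Its members were taken by name from the table of known bovine miRNAs as mir-30a, mir-30b, mir-30c, mir-30d, mir-30e and mir-30f on either hairpin arm. All 6 members found were 5p arms, among 283 known miRNAs and 884 unique miRNAs in all. The lactation library came from the MG of 1 Holstein cow that was 6 years old and had been in milk for 2 months. The non-lactation library came from the MG of 1 Holstein cow that was 4 years old and was neither lactating nor pregnant, and both cows had calved more than once. Lactation therefore cannot be told apart from the age of the cow or from any other difference between these animals. For each miRNA the deposited tables hold the reads of its most abundant sequence, the reads of all its isomiRs (length and sequence variants) and the number of kinds of isomiRs. The most abundant sequences of all listed miRNAs held 5745961 reads in the lactation library, against 7879028 in the non-lactation library, which were 48% and 49.3% of the clean reads. The sample labels name Trizol and a TruSeq small RNA kit. For the sequenced RNA the methods of the study name a Qiagen kit for extraction. For library construction they name an Illumina small RNA kit, without the name TruSeq.

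A miRNA is cut from a hairpin transcript, and 1 arm of the hairpin usually becomes the guide that leads the silencing complex to messenger RNAs. Pairing of the seed near the 5′ end largely decides which messengers are bound, so miRNAs with 1 seed can share targets. In cultured human cells the mir-30 family is known to favour adipocyte differentiation and to repress mesenchymal genes such as vimentin and SNAI1, and in endothelial cells it represses the Notch ligand DLL4. In mice, forced expression of miR-30b in the mammary epithelium is known to impair lactation and to delay involution.

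The 6 members had the same seed, GUAAACA, and fell into a pair of sequence groups by the bases after it. Their most abundant sequences are shown from 5′ to 3′ because each result below belongs to 1 of them, with the seed (bases 2 to 8) in capitals.
mir-30a-5p: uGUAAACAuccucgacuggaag
mir-30d-5p: uGUAAACAuccccgacuggaagcu
mir-30e-5p: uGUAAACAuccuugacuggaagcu
mir-30b-5p: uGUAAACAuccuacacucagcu
mir-30c-5p: uGUAAACAuccuacacucucagcu
mir-30f-5p: uGUAAACAcccuacacucucagcu
Positions are counted from 1 at the 5′ end, and the first-named miRNA has the first base of each change. Over the 22 bases they share in length, mir-30a-5p and mir-30d-5p differed by U12C, and mir-30a-5p and mir-30e-5p by C13U. The sequences of mir-30d-5p and mir-30e-5p differed from each other by C12U and C13U. In the other group mir-30c-5p and mir-30f-5p differed by U9C over all 24 bases, which is the first base after the seed. The sequence of mir-30b-5p was that of mir-30c-5p without 2 adjacent bases, and their first 18 bases were the same. The listed sequence of mir-30a-5p was 22 nt long and those of mir-30d-5p and mir-30e-5p were 24 nt long. The bases CU that end both longer forms also follow the mir-30a-5p sequence in its hairpin, and the listed length of each member is that of its most abundant sequence.

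Every hairpin of the family also had a 3p arm, but the authors listed all 6 of these among the candidates predicted from the genome (prefix CN) and not among the known miRNAs. They were matched to the members by identical hairpin coordinates and are shown, with bases 2 to 8 in capitals, because they carry other seeds than the members.
CN-86-3p: cUUUCAGUcggauguuugcag
CN-74-3p: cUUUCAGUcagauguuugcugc
CN-470-3p: cUUUCAGUcggauguuuacag
CN-75-3p: cUGGGAGGuggauguuuacu
CN-469-3p: cUGGGAGAggguuguuuacu
CN-85-3p: cUGGGAGAaggcuguuuacu
The 3p arms of mir-30a (CN-86-3p), mir-30d (CN-74-3p) and mir-30e (CN-470-3p) shared the seed UUUCAGU. Those of mir-30c (CN-469-3p) and mir-30f (CN-85-3p) shared UGGGAGA, and that of mir-30b (CN-75-3p) had UGGGAGG. The 3p arms therefore divided along the same sequence groups as the 5p arms. CN-86-3p and CN-470-3p differed by G18A alone, and this change lies outside their seed.

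The 6 hairpins lay in 3 genomic pairs, and each pair joined 1 hairpin of each sequence group. Coordinates are those of the files in the bovine build BTA 4.0. On the plus strand of chromosome 14, mir-30d lay from 6473522 to 6473591 and mir-30b from 6477866 to 6477953, with 4274 bases between them. On the minus strand of chromosome 3, mir-30c lay from 112437430 to 112437534 and mir-30e from 112440564 to 112440655, with 3029 bases between them. On the minus strand of chromosome 9, mir-30f lay from 9851442 to 9851525 and mir-30a from 9888794 to 9888860, with 37268 bases between them. No other listed hairpin stood close to a pair, and the nearest one was 135 kb away, on chromosome 9. In the RefSeq annotation of assembly ARS-UCD2.0, used for names and neighbours only, all 6 hairpins were found on the same chromosomes. MIR30C and MIR30E lay within the span of NFYC, which encodes a subunit of the transcription factor NF-Y, and MIR30A lay within the span of the protein-coding gene LOC132346186. MIR30F, MIR30D and MIR30B lay between genes. The table gave gene spans, so exons and introns were not told apart here.

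The family was more abundant in the lactation library, and mir-30a-5p carried most of its reads in both. Levels are reads of the most abundant sequence per 1000000 clean reads (RPM), and the ratio of a miRNA is its RPM in lactation over that in non-lactation, with exact 95% intervals (Clopper-Pearson, conditional on the summed reads). PCR copies of 1 molecule are counted as separate reads, so these intervals hold for counting error alone. With 1 library per condition no difference has a replicate check in the sequencing, and the exact tests on reads compare these libraries, not the conditions. The 6 members together had 178417 reads (14912 RPM) in the lactation library, against 79424 reads (4974 RPM) in the non-lactation library, a ratio of 3.0 (2.97 to 3.02). They held 3.17% and 1.04% of the reads of known miRNAs. Among the 213 seeds of the known miRNAs, the mir-30 seed ranked 6th by reads in the lactation library, against 11th in the non-lactation library. The seeds of let-7, mir-26, mir-29, mir-21 and mir-103 ranked above it in both. In pieces of whole gland, fewer cells of a type and less RNA per cell cannot be told apart.

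The most abundant member, mir-30a-5p, had 149924 reads (12530 RPM) in the lactation library, against 53130 reads (3327 RPM) in the non-lactation library. It was the 10th most abundant known miRNA in the lactation library, against the 22nd in the non-lactation library. Its ratio was 3.77 (3.73 to 3.80). In contrast, mir-30f-5p, whose hairpin is the neighbour of mir-30a on chromosome 9, was scarce in both libraries. It had 1202 reads (100.5 RPM) in the lactation library, against 281 reads (17.6 RPM) in the non-lactation library, and ranked 84th and 118th. Its ratio of 5.71 (5.01 to 6.52) was above that of mir-30a-5p, with no overlap of their intervals. Of the 6 members, these were the ones that differed most between the libraries.

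The pair on chromosome 14 changed less. The more abundant of them, mir-30d-5p, had 18770 reads (1569 RPM) in the lactation library, against 18168 reads (1138 RPM) in the non-lactation library, a ratio of 1.38 (1.35 to 1.41). It ranked 31st and 32nd, so its place among the known miRNAs was nearly the same. Its neighbour mir-30b-5p, the member studied in the mouse mammary gland, had 3002 reads (251 RPM) in the lactation library, against 2182 reads (137 RPM) in the non-lactation library, a ratio of 1.84 (1.74 to 1.94).

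The pair on chromosome 3 had the smallest ratios of the 6 members. The library of the lactating gland held 4643 reads of mir-30e-5p (388 RPM), and the non-lactation library held 4763 reads (298 RPM). The ratio of mir-30e-5p was 1.30 (1.249 to 1.355). For mir-30c-5p there were 876 reads (73.2 RPM) in the lactation library, against 900 reads (56.4 RPM) in the non-lactation library, a ratio of 1.30 (1.18 to 1.43). Both had fewer reads in the lactation library before scaling, so the direction of this pair rests on the library totals. Without scaling their ratios were 0.975 for mir-30e-5p and 0.973 for mir-30c-5p. The order of abundance was the same in both libraries from mir-30a-5p through mir-30d-5p, mir-30e-5p and mir-30b-5p. The last places changed, since mir-30f-5p stood above mir-30c-5p in the lactation library but below it in the non-lactation library, in each case with intervals of RPM that did not overlap.

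**Figure D1:**
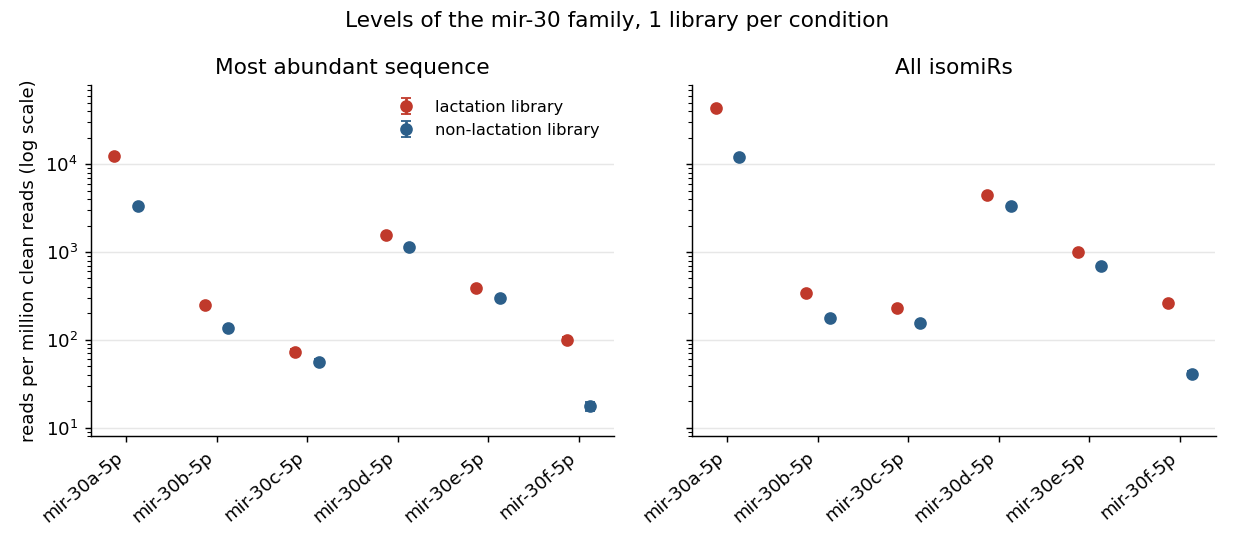
Level of the 6 mir-30 members in the lactation and non-lactation libraries, in RPM on a log axis, with exact 95% counting intervals as error bars (1 library each). The left panel shows the most abundant sequence and the right panel all isomiR reads. mir-30a-5p stands highest in both libraries, at 12530 and 3327 RPM (left) and 43235 and 12003 RPM (right), and mir-30f-5p moves from the lowest place in the non-lactation library to above mir-30c-5p in the lactation library.

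Read against all miRNAs, mir-30a-5p and mir-30f-5p had ratios that few others exceeded. A ratio of at least 2-fold with at least 100 summed reads was found for 2 of the 6 members, both higher in the lactation library, where 79 of all 273 miRNAs with that many reads (28.9%) were higher and 62 (22.7%) were lower. With other scalings the split over all miRNAs was 59 higher and 71 lower (TMM), 58 and 73 (DESeq2 size factors) and 50 and 83 (no scaling). No member was 2-fold lower. Of the 273 miRNAs, 21 (7.69%) had a ratio above that of mir-30f-5p and 31 (11.4%) above that of mir-30a-5p. For mir-30b-5p the count was 87 (31.9%), for mir-30d-5p 117 (42.9%), for mir-30e-5p 127 (46.5%) and for mir-30c-5p 128 (46.9%). The last 3 members were therefore near the middle of all miRNAs.

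The exact binomial test (two-sided, Bonferroni over 883 miRNAs, threshold 0.05) called all 6 members higher in the lactation library. Without scaling 3 of the 6 passed, and mir-30d-5p, at a ratio of 1.03, mir-30c-5p and mir-30e-5p did not pass in either direction. Over all miRNAs it called 154 (17.4%) higher and 96 (10.9%) lower. The split was 108 higher and 125 lower without scaling. Calls of this test followed read number, and among the 124 miRNAs with at least 1000 summed reads it called 50% higher and 43.5% lower, so a call by itself set no member apart. The weakest call was that of mir-30c-5p (exact test, adjusted p = 3.4e-05). With TMM factors mir-30c-5p and mir-30e-5p both had a ratio of 1.08, with DESeq2 size factors both had 1.07, and neither passed the test with either. The median log2 ratio of the 6 members was 0.67, against 0.24 for the 273 miRNAs, of which 56.0% were higher in the lactation library. On the log2 scale TMM factors moved the median of all miRNAs by -0.26, DESeq2 size factors by -0.28 and no scaling by -0.42. Since such a scaling multiplies all ratios by 1 factor, the members kept their distance to that median by construction, and their own median stood 0.43 above it on the log2 scale.

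**Figure D2:**
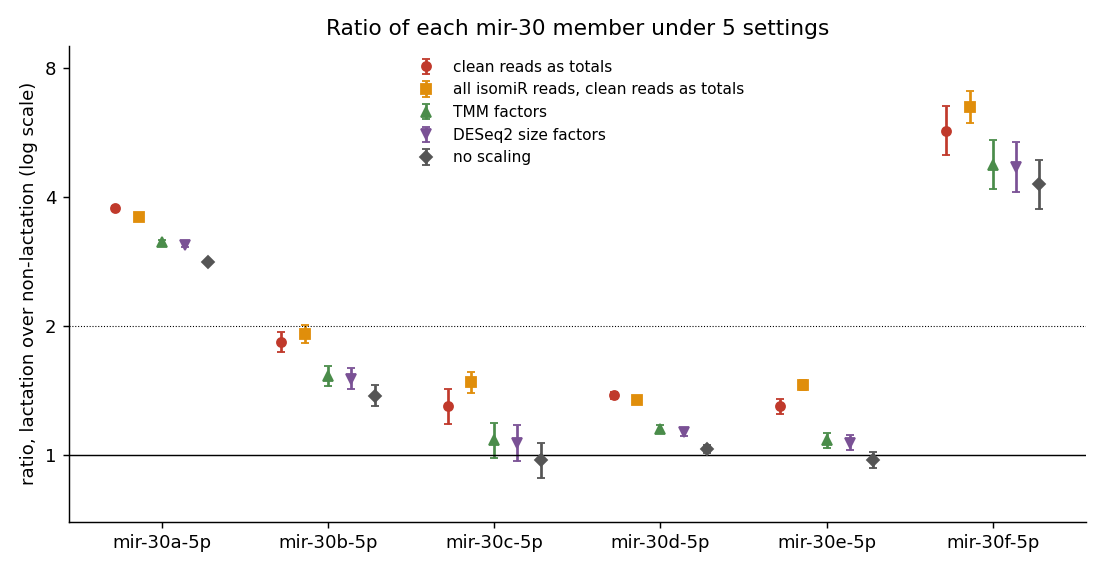
Ratio, lactation over non-lactation, of each mir-30 member on a log axis with exact 95% counting intervals. Ratios of RPM are shown for the most abundant sequence and for all isomiR reads. Ratios of the most abundant sequence are also shown with TMM factors, with DESeq2 size factors and without scaling. mir-30a-5p and mir-30f-5p lie well above 2, and mir-30c-5p, mir-30d-5p and mir-30e-5p lie between 1 and 1.5, except that mir-30c-5p and mir-30e-5p fall to 0.973 and 0.975 without scaling.

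**Figure D3:**
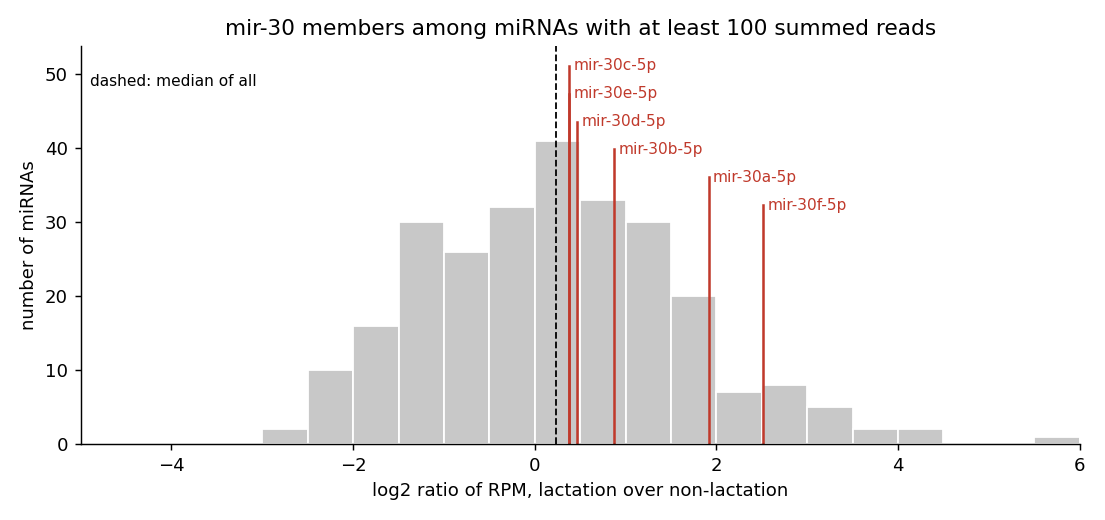
Distribution, on the log2 scale, of the ratios of all miRNAs with at least 100 summed reads, with the mir-30 members marked. Each ratio divides the RPM of the lactation library by that of the non-lactation library, and 8 of the 273 miRNAs lie outside the axis. The ratios of mir-30a-5p (1.91) and mir-30f-5p (2.51) exceed those of most miRNAs. Those of mir-30c-5p, mir-30d-5p and mir-30e-5p lie close to the median of 0.24.

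With all isomiR reads mir-30f-5p, mir-30a-5p and mir-30b-5p kept their order of ratios, and the order of the other 3 members was turned round, with mir-30d-5p lowest. The ratio over all isomiRs was 6.48 (5.95 to 7.06) for mir-30f-5p, with 3140 reads in the lactation library, against 647 in the non-lactation library. For mir-30a-5p it was 3.60 (3.58 to 3.62), with 517305 and 191663 reads, and mir-30a-5p then ranked 4th among known miRNAs in the lactation library, against 14th in the non-lactation library. The ratios of the other members were 1.91 for mir-30b-5p, 1.48 for mir-30c-5p, 1.46 for mir-30e-5p and 1.35 for mir-30d-5p. The whole family held 5.90% of all isomiR reads of known miRNAs in the lactation library, against 1.82% in the non-lactation library.

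The make-up of the family moved towards mir-30a-5p. It held 84.0% (83.9% to 84.2%) of the reads of the 6 members in the lactation library, against 66.9% (66.6% to 67.2%) in the non-lactation library. The share of mir-30d-5p was 10.5% in the lactation library, against 22.9% in the non-lactation library. For mir-30e-5p the shares were 2.60% and 6.0%, for mir-30b-5p 1.68% and 2.75%, and for mir-30c-5p 0.491% and 1.13%. The share of mir-30f-5p was 0.674% in the lactation library, against 0.354% in the non-lactation library, so mir-30a-5p and mir-30f-5p took larger shares and the other members smaller ones. Without mir-30a-5p the summed reads of the family were 28493 and 26294, and the ratio was 1.45 (1.42 to 1.47). By sequence group, mir-30a, mir-30d and mir-30e together had a ratio of 3.04, which mir-30a-5p carried. The group of mir-30b, mir-30c and mir-30f had 5080 reads in the lactation library, against 3363 in the non-lactation library, a ratio of 2.02 (1.93 to 2.11).

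Hairpins that lie close together can be cut from 1 transcript, and the relative level of such neighbours does not depend on the library totals. On chromosome 3 this relative level was nearly the same in both libraries. There mir-30c-5p made up 15.9% of the reads of the pair in the lactation library, against 15.9% in the non-lactation library, and its level relative to mir-30e-5p was 0.998-fold (0.90 to 1.11) in lactation over non-lactation (Fisher's exact test, two-sided, adjusted p = 1 over 3 pairs). On chromosome 14, mir-30b-5p made up 13.8% and 10.7% of the reads of its pair, and its level relative to mir-30d-5p was 1.33-fold (1.26 to 1.41) higher in the lactation library (exact test, adjusted p = 2.8e-21). On chromosome 9, mir-30a-5p had 125 reads for each read of mir-30f-5p in the lactation library, against 189 in the non-lactation library. The level of mir-30f-5p relative to mir-30a-5p was thus 1.52-fold (1.33 to 1.73) higher in the lactation library (exact test, adjusted p = 2.7e-10). Both hairpins of this widely spaced pair were more than 2-fold higher in the lactation library, and neither hairpin of the other pairs was.

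The 5p arm was the main product of all 6 hairpins in both libraries, and in 3 of them it led by more in the lactation library. The 3p share is the share of 3p reads in the reads of both arms, counted for the most abundant sequence of each arm. For mir-30e the 3p arm CN-470-3p had 354 reads in the lactation library, against 830 in the non-lactation library, and its share was 7.08% (6.39% to 7.83%) and 14.8% (13.9% to 15.8%). The ratio of 5p to 3p reads was 13.1 in the lactation library, against 5.74 in the non-lactation library, which is 2.29-fold (2.00 to 2.61) higher (Fisher's exact test, two-sided, Bonferroni over 108 hairpins, adjusted p = 1.5e-35). The ratio of RPM of CN-470-3p was 0.569 (0.501 to 0.645), while that of mir-30e-5p was 1.30. Before scaling both arms had fewer reads in the lactation library (0.975 for mir-30e-5p), so that the arms went opposite ways rests on the library totals, whereas the 5p to 3p ratio does not depend on them. With all isomiR reads the 3p share of mir-30e was larger, at 13.6% in the lactation library, against 31.8% in the non-lactation library. The 5p to 3p ratio was then 2.96-fold higher in the lactation library for mir-30e, 1.86-fold for mir-30a and 1.67-fold for mir-30f.

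For mir-30a the 3p arm CN-86-3p had 2600 reads in the lactation library, against 1718 in the non-lactation library. Its share was 1.70% (1.64% to 1.77%) and 3.13% (2.99% to 3.28%), and the 5p to 3p ratio was 1.86-fold (1.75 to 1.98) higher in the lactation library (exact test, adjusted p = 1.4e-80). Both arms of mir-30a were higher there, and CN-86-3p less so, with a ratio of RPM of 2.02 (1.90 to 2.15). For mir-30f the 3p arm CN-85-3p had 182 reads in the lactation library, against 84 in the non-lactation library, with shares of 13.2% (11.4% to 15.05%) and 23.0% (18.8% to 27.7%). Its 5p to 3p ratio was 1.97-fold (1.46 to 2.66) higher in the lactation library (exact test, adjusted p = 9.0e-04), and the ratio of RPM of CN-85-3p was 2.89 (2.22 to 3.79).

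The other 3 hairpins gave almost no 3p reads, and a difference of arms was not detectable at this depth. There were 11 reads of CN-75-3p (mir-30b) in the lactation library, against 9 in the non-lactation library, 8 and 3 of CN-469-3p (mir-30c), and 7 and 5 of CN-74-3p (mir-30d). The intervals of lactation over non-lactation of the 5p to 3p ratio ran from 0.41 to 2.99 for mir-30b, from 0.062 to 1.53 for mir-30c and from 0.185 to 2.70 for mir-30d. Of the 108 hairpins with reads on both arms in both libraries, the test called the 5p to 3p ratio higher in the lactation library in 13 (12%) and lower in 2 (1.85%). The mir-30 hairpins were 3 of those 13. The 108 hairpins were not matched for depth, and those with few reads on an arm, such as the 8 and 3 of CN-469-3p, can hardly pass this test. Over the 108 hairpins the median share of the scarcer arm was 2.62% in the lactation library, against 2.82% in the non-lactation library. The 5p to 3p ratio was higher in the lactation library in 56 of the 108 hairpins, whether or not they passed the test.

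**Figure D4:**
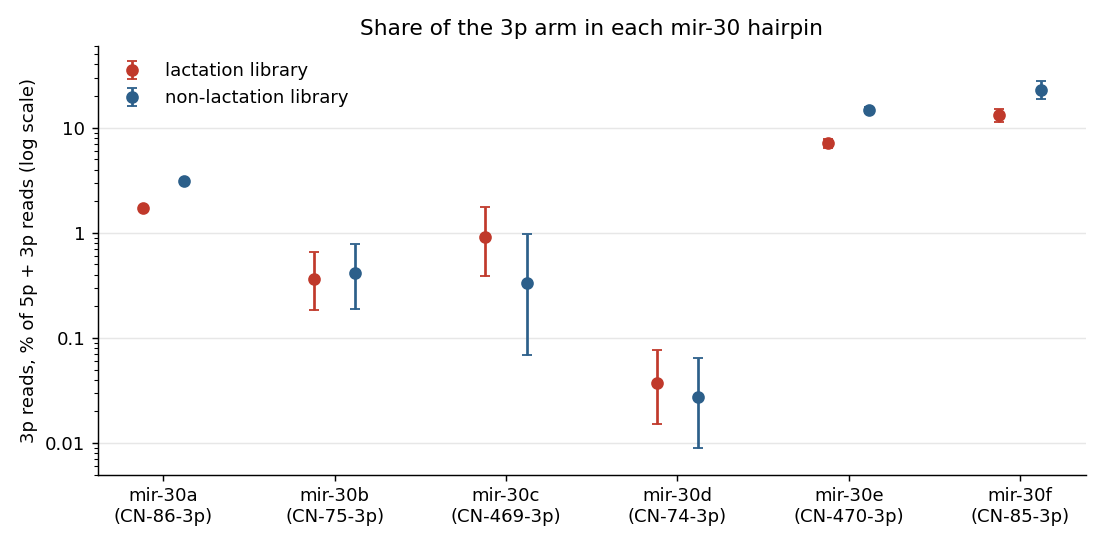
Share of 3p reads in the reads of both arms of each mir-30 hairpin in the lactation and non-lactation libraries, in percent on a log axis, with exact 95% intervals and the 3p entry in brackets. Reads are those of the most abundant sequence of each arm. The share is lower in the lactation library for mir-30a (1.70% and 3.13%), mir-30e (7.08% and 14.8%) and mir-30f (13.2% and 23.0%), and the intervals of the other hairpins overlap.

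The share of the most abundant sequence in all isomiR reads of a miRNA tells how far a single sequence accounts for its reads, and end variants and base changes were not told apart here. Among the members it was highest for mir-30b-5p, at 73.9% in the lactation library, against 77.0% in the non-lactation library, and lowest for mir-30a-5p, at 29.0% and 27.7%. The most abundant sequence thus held under a 30% share of mir-30a-5p reads in both libraries. The shares of the other members were between 31.7% and 38.7% in the lactation library, against between 34.2% and 43.4% in the non-lactation library. The share passed Fisher's exact test (two-sided, Bonferroni over 176 known miRNAs) in 2 members, and the directions were opposite. It was higher in the lactation library by 1.26 points for mir-30a-5p (adjusted p = 2.5e-23) and lower for mir-30e-5p, at 38.7% in the lactation library, against 43.4% in the non-lactation library (adjusted p = 8.0e-11). Of the 176 known miRNAs, 35 (19.9%) had a higher and 42 (23.9%) a lower share by this test. The median size of the difference over these miRNAs was 5.33 points, which is larger than the difference of either member. These miRNAs, with at least 100 isomiR reads in each library, were not matched for depth. At few reads counting error adds to the size of a difference.

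More kinds of isomiRs were listed for every member in the lactation library. There were 437 kinds of mir-30a-5p in the lactation library, against 249 in the non-lactation library, 243 and 133 of mir-30d-5p, and 104 and 54 of mir-30e-5p. For mir-30b-5p there were 42 and 19 kinds, for mir-30c-5p 33 and 16, and for mir-30f-5p 34 and 10. The number of kinds grows with reads, so kinds can be compared only where the unscaled isomiR reads were alike. This held for mir-30d-5p, with 53611 isomiR reads in the lactation library, against 53166 in the non-lactation library, and nearly so for mir-30e-5p, with 12009 and 10983, and mir-30c-5p, with 2766 and 2497. At these reads the number of kinds was 1.83 times as high in the lactation library for mir-30d-5p, 1.93 times for mir-30e-5p and 2.06 times for mir-30c-5p. The same direction was found in all 17 known miRNAs with at least 1000 isomiR reads in each library and isomiR reads that differed by about as little (ratios of unscaled reads of 0.816 to 1.2), so it was not particular to the family. Among these 17, the 3 mir-30 members ranked 1st, 2nd and 3rd, and the other 14 ran from 1.1 to 1.52 with a median of 1.22. The ranking holds within this range of reads alone. Just outside it, mir-19b-3p, with 5771 isomiR reads in the lactation library against 4434, had 56 kinds against 23. This is a larger ratio than those of the 3 members, whereas mir-425-5p, with 1430 reads against 1106, had 20 kinds in each library. No test was made of these numbers.

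**Figure D5:**
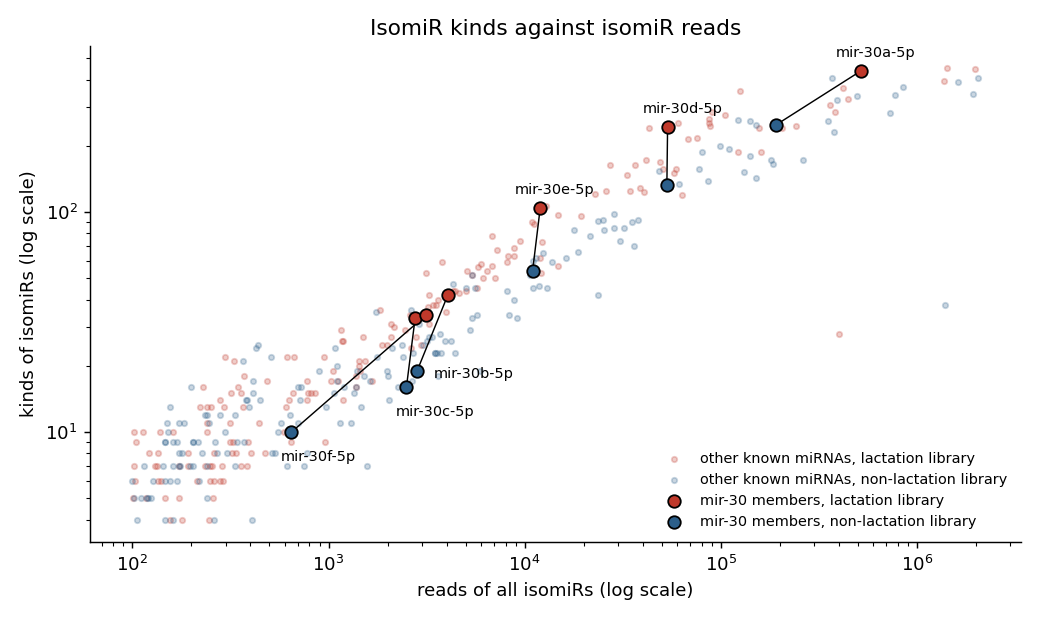
Number of kinds of isomiRs against the reads of all isomiRs, both on log axes, for known miRNAs with at least 100 isomiR reads, by library, where lines join the 2 points of each mir-30 member. The lines of mir-30d-5p (243 and 133 kinds), mir-30e-5p (104 and 54) and mir-30c-5p (33 and 16) are almost vertical, so kinds differed at nearly equal reads.

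A further entry held the seed of the family at another position. It was listed among the miRNAs conserved in other mammals as PC-30d-5p, and it is shown, with its own bases 2 to 8 in capitals, because its start differs from that of mir-30d-5p.
PC-30d-5p: cUGUAAACauccccgacuggaaga
It began 1 base before mir-30d-5p, differed from it by C23A at its 3′ end (position counted in mir-30d-5p), and so had the seed UGUAAAC. It had 9 reads in the lactation library, against 11 in the non-lactation library, a ratio of 1.09 (0.40 to 2.90), so no difference was detectable.

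Ratios also varied within the families set beside mir-30. By the exact test with clean reads as totals mir-26 had 1 member higher and 1 lower (ratios of 0.410 to 1.22), mir-29 had 1 higher and 2 lower (0.394 to 1.4), and the family of mir-148 and mir-152 had 3 of 3 higher (1.18 to 7.60). Of these, mir-26b-5p, with 108006 reads in the lactation library against 118498 in the non-lactation library, and mir-152-3p, with 6961 against 7880, had fewer reads in the lactation library before scaling, so their direction rests on the library totals. The median log2 ratio of mir-148 and mir-152 members was 0.63, close to the 0.67 of the mir-30 members. Among 104 known miRNAs with at least 1000 summed reads, the ratios nearest to that of mir-30a-5p were those of mir-126-5p at 3.27 (3.10 to 3.45), mir-363-3p at 3.24 (2.93 to 3.57) and mir-17-5p at 3.09 (2.90 to 3.29). The endothelial miRNA mir-126 and mir-17, of the mir-17/92 cluster, are thus among them. Nearest to mir-30f-5p were mir-200b-3p, an epithelial miRNA, at 5.77 (5.62 to 5.93), mir-193a-5p at 5.21 (4.91 to 5.53) and mir-1-3p, a miRNA of striated muscle, at 6.35 (6.22 to 6.49). A likeness over 2 libraries is no more than a like ratio.

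Markers of epithelium, endothelium and striated muscle were higher in sum in the lactation library, as mir-30a-5p and mir-30f-5p were. Of the 7 epithelial miRNAs listed (mir-200 family members, mir-141, mir-429, mir-205 and mir-375), 6 were higher and mir-205-5p was lower in the lactation library. Their summed level was 15169 RPM in the lactation library, against 2797 RPM in the non-lactation library. Both arms of the endothelial mir-126 were higher, at 487 and 165 RPM in sum. Of the 5 striated muscle miRNAs listed, 3 were higher and 2 did not pass the test (mir-208a and mir-208b were not listed), and their sum was 4494 RPM in the lactation library, against 702 RPM in the non-lactation library. This sum was nearly all mir-1-3p, at 4393 and 691 RPM. The 6 miRNAs of stroma and smooth muscle went the other way in sum, at 8640 and 14558 RPM, with 2 higher, 3 lower and 1 that did not pass. The fall of mir-199a-3p, at 2100 RPM in the lactation library, against 9968 RPM in the non-lactation library, was larger than that of the sum. The rest of this list was higher in sum in the lactation library, so the direction of the sum rests on mir-199a-3p. The smooth muscle miRNAs mir-143-3p (ratio of 2.35) and mir-145-5p (1.17) were the 2 higher ones. Before scaling mir-145-5p had fewer reads in the lactation library, 48288 against 54860, so its direction rests on the library totals. Of 7 miRNAs of blood and immune cells 1 was higher and 3 were lower, at 145 and 158 RPM in sum. The higher one was mir-451-5p, at 74.3 RPM in the lactation library, against 29.7 RPM in the non-lactation library. Without it the list was lower in sum in the lactation library. Among those that did not pass, mir-144-3p had 3 reads in the lactation library, against 0 in the non-lactation library. The part of the cell make-up in the mir-30 ratios was not tested.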

How the data were processed

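The authors sequenced 1 small RNA library of the MG for each condition. They removed adaptors, low-quality reads and reads matching mRNA, Rfam and Repbase, and mapped the rest with ACGT101-miR to miRBase and the bovine genome BTA 4.0. The deposited values are raw read counts for the most abundant sequence and for the isomiRs together, and counts of kinds of isomiRs. The isomiR columns of the CN table were taken in the other order than labelled, since only then are isomiR reads at or above those of the most abundant sequence. No isomiR sum was used for 6 CN entries where it was blank or below the main reads.

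RPM used the clean reads stated by the study as totals, since the tables hold only part of each library, and a listed 0 was set to 3 reads. Of 884 unique miRNAs, 883 were tested for main reads and 877 for isomiR reads. Where 2 arms were compared, entries were matched by identical coordinates and strand across the 3 tables. Named miRNAs were the 6 members, all entries at their hairpins, entries whose sequence holds bases 1 to 8 of mir-30a-5p, and the 3 known miRNAs with a ratio nearest to that of mir-30a-5p and to that of mir-30f-5p. The other miRNAs were given by lists of markers and families, with some exceptions that were named after their values were seen. These were mir-205-5p, mir-144-3p, mir-451-5p, mir-143-3p, mir-145-5p, mir-199a-3p, mir-26b-5p, mir-152-3p, mir-19b-3p and mir-425-5p. The members and lists were chosen with earlier results of these data known. The alternatives were other scalings, read minimums, fold thresholds, tests and all isomiR reads.

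Python 3.11.15 with scipy 1.17.1 and pandas 2.3.3 was used, and edgeR 4.0.16 and DESeq2 1.42.0 in R 4.3.3 for scaling factors alone, since 1 library per condition gives no dispersion. The methods were tested on simulated counts drawn with counting error alone. This test cannot cover differences between animals or PCR copies. At this depth, the 876 and 900 reads of mir-30c-5p gave an interval of its ratio from 1.18 to 1.43. Raw reads and target prediction were not analysed here. The study also ran a custom microarray on RNA pooled from several cows of each stage, and real-time PCR of selected miRNAs. Neither was used here.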

Additional observations from a re-analysis of the deposited data

How the results depend on the processing

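Of 146 alternative values, 121 stayed on the same side of their threshold or, for counts and for values with no test, close to the main value. Some counts taken as close did change. That of members passing the test was 4 with TMM factors and with DESeq2 size factors, in place of 6. Without scaling the ratios of mir-30c-5p and mir-30e-5p reversed to 0.973 and 0.975 and that of mir-30d-5p, at 1.03, no longer passed the test, so 3 of 6 members passed it. With TMM factors mir-30c-5p and mir-30e-5p stood at 1.08 and 1.08, and with DESeq2 size factors at 1.07 and 1.07, and none of these passed. Over these settings mir-30a-5p ranged from 2.82 to 3.87, mir-30b-5p from 1.38 to 1.91 and mir-30f-5p from 4.28 to 6.48. The summed ratio of the family was 2.80 with raw reads as totals, 3.08 with the listed reads, 2.50 with TMM, 2.46 with DESeq2 size factors, 2.25 without scaling and 1.45 without mir-30a-5p. At a fold of 4, 1 of the 6 members was higher. With all isomiR reads, lactation over non-lactation of the 5p to 3p ratio of mir-30b was 0.993 in place of 1.13, and of mir-30c-5p relative to mir-30e-5p 1.01 in place of 0.998, and neither passed the test in either form.

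Over all miRNAs, the 2-fold rule gave 50 higher without scaling, 29 higher and 16 lower at a fold of 4, 250 and 104 with no minimum of reads, and 37 and 33 with at least 1000 reads, in place of 79 and 62. Benjamini-Hochberg adjustment gave 268 higher in place of 154. The causes were not tested beyond the settings themselves. No paired analysis was possible because each condition had 1 library, and no library could be left out. Depth limits mainly the 3p arms of mir-30b, mir-30c and mir-30d, with 3 to 11 reads each.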
